A study of Mus musculus with 8 samples.

Results

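The genes described here are the nuclear-encoded subunits of the oxidative phosphorylation complexes I, III, IV and V. They were taken by symbol, as the genes whose names begin with Ndufa, Ndufb, Ndufs or Ndufv and a digit, Ndufc1, Ndufc2, Uqcr, Cox4 to Cox8 or Atp5. This gave 80 of the 24346 genes listed, of which 37 were counted with complex I, 8 with complex III, 18 with complex IV and 17 with complex V. The values are FPKM, sequenced fragments per kilobase of a gene's transcript relative to the mapped total of the library, from RNA sequencing of epithelial cells of the mouse colon. There were 8 libraries, 1 male and 1 female for each of 4 genotypes on the C57BL/6J strain: wild-type, St6galnac6-/-, B3galt5D116A and B3gnt7-/-. The mutants carry changes in glycosyltransferases, enzymes that build the sugar chains of mucins and other proteins, and all animals are labelled as untreated. The labels give no age and do not say if animals were pooled. The 2 libraries of a genotype differ in sex, so the tests see only how far these libraries lie apart.

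The respiratory chain sits in the inner mitochondrial membrane. Complex I (NADH dehydrogenase), complex III (cytochrome bc1) and complex IV (cytochrome c oxidase) pass electrons from NADH to oxygen and pump protons, and complex V (ATP synthase) uses the proton gradient to make ATP. Most subunits are encoded in the nucleus and a few in mitochondrial DNA, and colonocytes are known to feed this chain largely with butyrate made by gut bacteria. Some symbols hold genes whose product is placed elsewhere: Ndufa4 was first assigned to complex I and is now regarded as a complex IV subunit, Cox7a2l takes part in joining complexes III and IV, and Atp5s and Atp5sl are not core ATP synthase subunits. They were kept with the complex of their symbol.

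The targeted genes were read first as a check of the labels. St6galnac6 was at 218 and 232 FPKM in the St6galnac6-/- male and female and at 343 to 495 FPKM in the 6 other libraries. B3gnt7 was at 68.8 and 142 FPKM in the B3gnt7-/- male and female and at 154 to 266 FPKM elsewhere. Both genes were thus lowest in their own mutant. The B3gnt7-/- female was close to the B3galt5D116A female (154 FPKM), so its label is checked only weakly. B3galt5D116A is a substitution, and the B3galt5 level (93.1 to 162 FPKM) does not check it. The sum of all FPKM was 518482 to 639537, lowest in the B3gnt7-/- female and highest in the B3galt5D116A female, and between 11392 and 11663 genes reached 1 FPKM. The 16 markers of absorptive colonocytes summed to 11176 to 24171 FPKM, with Car1 the highest (5241 to 16569 FPKM) and Alpi the lowest (6.30 to 12.4 FPKM). The 8 markers of T cells and intraepithelial lymphocytes summed to 6.14 to 17.7 FPKM and the erythrocyte markers to 8.25 to 48.6 FPKM, both highest in the B3gnt7-/- female.

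The members were among the most abundant transcripts of the colon epithelium. Of the 80, 74 had a mean of at least 1 FPKM and were tested, and 67 had a mean of at least 100 FPKM. These 67 made up 7.02% of the 954 genes at that level. Together the members held 5.19% of the FPKM sum in the B3gnt7-/- female, 6.04% in the B3galt5D116A female and between these values in the other libraries. The median member of complex I had a mean of 186 FPKM, against 570 FPKM for complex III, 705 FPKM for complex IV and 661 FPKM for complex V, and the complex I median was the lowest of the 4 in each library. FPKM is per length, so levels of different genes are given side by side. Whether they compare between short and long genes was not tested.

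**Figure D1:**
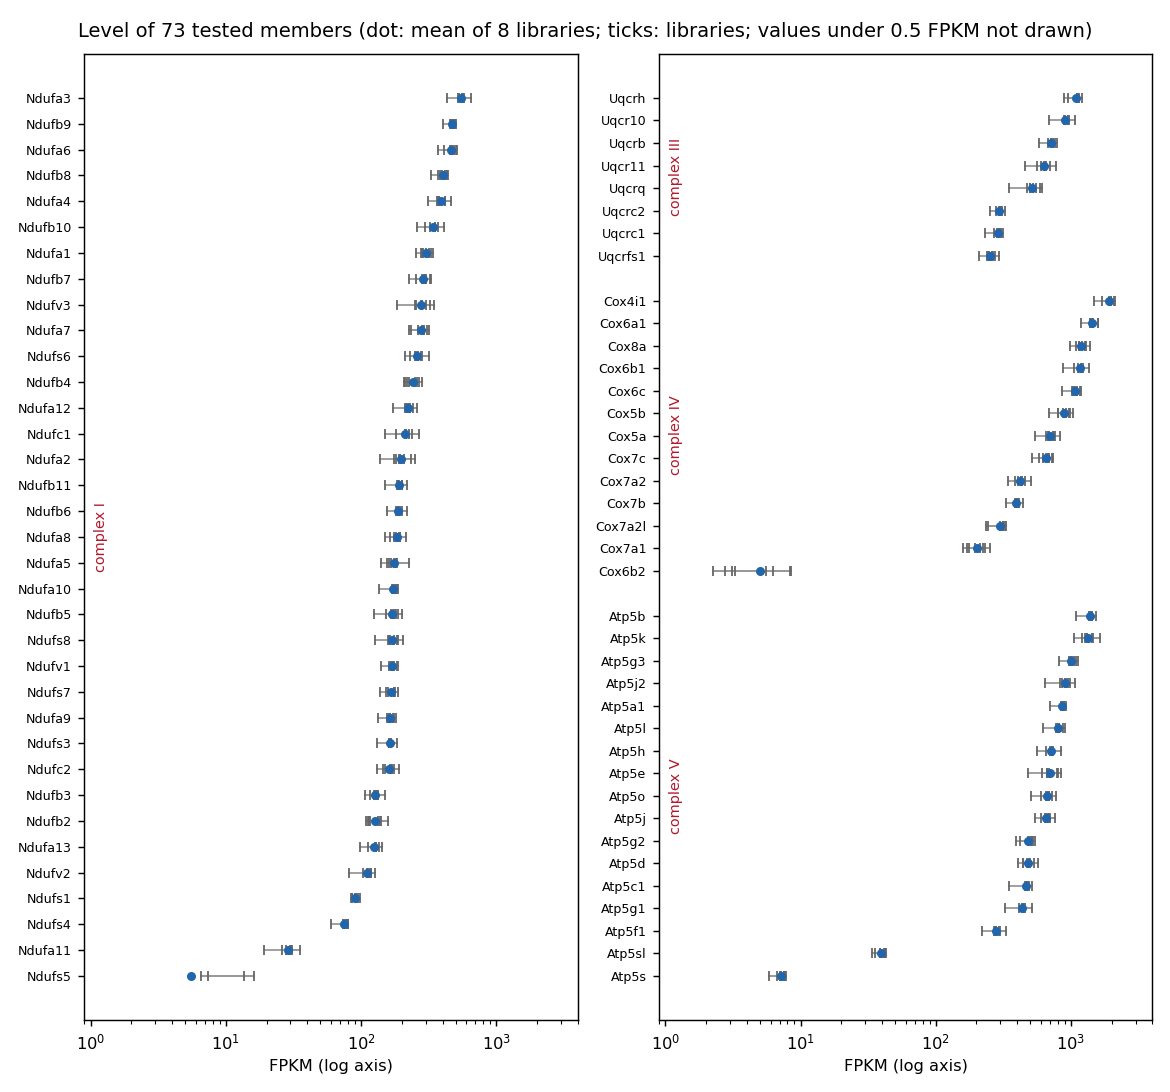
FPKM of 73 of the 74 tested members on a log axis, sorted by mean within each complex. Dots are means of the 8 libraries, ticks are single libraries and lines span them. Most complex I members sit below most members of complexes IV and V, and Ndufs5, Cox6b2 and Atp5s sit far below their complexes.

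Within complex I the core subunits, which carry the flavin and iron-sulphur centres or lie beside them, were among the lower members. Ndufs1, the largest subunit of the electron input arm, had a mean of 90.2 FPKM and ranged from 83.8 to 98.3 FPKM. Ndufv2 was at 111, Ndufs3 at 162, Ndufs7 at 168, Ndufv1 at 169 and Ndufs8 at 170 FPKM in the mean of the 8 libraries. The accessory subunits Ndufa3 (547 FPKM) and Ndufb9 (469 FPKM) were the highest of the complex. Ndufa11 (28.7 FPKM) and Ndufs5 (5.49 FPKM) were the lowest tested.

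In complex III, the hinge protein Uqcrh (1083 FPKM) and Uqcr10 (905 FPKM) were highest, and the 3 larger subunits were lowest. The latter are the Rieske iron-sulphur protein Uqcrfs1 (254 FPKM) and the core proteins Uqcrc1 (286 FPKM) and Uqcrc2 (295 FPKM). Complex V showed no such split. The catalytic beta subunit Atp5b had the highest mean (1381 FPKM) and the small membrane subunit Atp5k the next (1332 FPKM), while the alpha subunit Atp5a1 was at 853 FPKM and the gamma subunit Atp5c1 at 463 FPKM. The 3 genes for subunit c of the rotor ring, Atp5g1, Atp5g2 and Atp5g3, had means of 435, 485 and 1007 FPKM, so Atp5g3 led in the mean. Atp5s (7.17 FPKM) and Atp5sl (39.4 FPKM) were the lowest.

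Cox4i1, a subunit of complex IV at the site where ATP is known to inhibit the enzyme, was the most abundant member (1898 FPKM in the mean, place 25 among all genes) and ranged from 1488 FPKM in the B3gnt7-/- female to 2103 FPKM in the wild-type male. Cox5a was at 705 and Cox5b at 882 FPKM. Several complex IV subunits have tissue forms, and for most of them 1 form was nearly alone here. Cox4i2, Cox6a2 and Cox8b, known from lung or from heart and muscle, did not exceed 0.940 FPKM in any library, against means of 1898 FPKM for Cox4i1, 1427 FPKM for Cox6a1 and 1185 FPKM for Cox8a. Cox8c was listed at 0 in all 8 libraries, Cox7b2 in 7 of them, and Ndufa4l2 did not exceed 0.193 FPKM.

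Cox7a1 was the exception among the muscle forms. This gene, at chr7:30184144-30186078 of mm10 with no overlapping gene and no near-identical copy in the annotation, is known as the heart and skeletal muscle form of subunit 7a. The wild-type male and female had 223 and 233 FPKM, the St6galnac6-/- pair 160 and 169 FPKM, the B3galt5D116A pair 195 and 253 FPKM and the B3gnt7-/- pair 214 and 177 FPKM. Its partner Cox7a2 ranged from 345 to 502 FPKM, so Cox7a1 held 28.3% to 34.9% of the sum of both. The 6 muscle markers listed (Acta2, Myh11, Des, Tagln, Actg2 and Cnn1) summed to 4.20 to 8.23 FPKM per library. Of these, Tagln alone had a mean of at least 1 FPKM, and Des was at or under 0.123 FPKM. Any part of muscle RNA in the Cox7a1 level was not tested.

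Cox7a1 was also the member with the smallest p-value between St6galnac6-/- and wild-type. Its mean was 165 ± 6.33 FPKM (SD, n = 2) in St6galnac6-/- and 228 ± 6.47 FPKM (SD, n = 2) in wild-type, and the 2 groups did not overlap. On the log2(FPKM + 1) scale the difference was -0.47 (SE 0.17), with an unadjusted p of 0.0256 and an adjusted p of 0.487 in limma, so it did not pass the threshold of 0.05.

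No member passed the adjusted threshold in any comparison of genotypes. With limma fitted on all 11537 tested genes and p-values adjusted over them, 0 of 74 members were called between St6galnac6-/- and wild-type, where 0.0867% of all genes were called, between B3galt5D116A and wild-type (0.078%) and between B3gnt7-/- and wild-type (0.052%). At an unadjusted p under 0.05 the counts were 1 lower for St6galnac6-/- (4.98% of all genes), 1 lower for B3galt5D116A (5.9%) and 0 lower for B3gnt7-/- (4.29%). None was higher at that level in any of the 3 (4.07%, 5.84% and 2.88% of all genes). Between the mutants, limma called 0 members for B3galt5D116A against St6galnac6-/- (0.026% of all genes), for B3gnt7-/- against St6galnac6-/- (0.0433%) and for B3gnt7-/- against B3galt5D116A (0.00867%). Unadjusted, these gave 2 members (3.51% of all genes), 1 member (3.81%) and 0 members (4.2%). The 2 were Cox7a1 and Cox6b2, and the 1 was Cox6b2. The limma test for any difference among the 4 genotypes called 0 members (0.0867% of all genes), with 0 at an unadjusted p under 0.05 (6.68%), and its smallest p-values were those of Cox6b2, Ndufs5 and Cox7a1 (adjusted p = 0.757 for each).

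These tests left room for moderate differences. For the 67 members of at least 100 FPKM, the 95% interval of a log2 difference reached a median of 0.40 to either side. The estimates ran from -0.47 to 0.05 for St6galnac6-/-, from -0.24 to 0.29 for B3galt5D116A and from -0.47 to 0.00 for B3gnt7-/-. The lowest bound of any interval was -0.96 and the highest 0.75.

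Besides Cox7a1, the members with the smallest p-values that had the same sign in both sexes were the following. Ndufs5 is described with its near-identical copy further on. In St6galnac6-/- they included Ndufa7 (log2 difference -0.28, adjusted p = 0.632 in limma), Atp5d, the delta subunit of the ATP synthase (-0.28, adjusted p = 0.636), and Cox8a (-0.25, adjusted p = 0.720). In B3galt5D116A they included Cox6b2 (0.35, adjusted p = 0.426) and, on the lower side, Atp5d (-0.24, adjusted p = 0.538), besides Ndufa4 (0.25, adjusted p = 0.552) and Atp5k (0.29, adjusted p = 0.563). In B3gnt7-/- they included Ndufv3 (-0.47, adjusted p = 0.700), Atp5d (-0.32, adjusted p = 0.730), Ndufb8 (-0.28, adjusted p = 0.730) and, on the higher side, Cox6b2 (0.32, adjusted p = 0.730). None of these passed.

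Most estimates nevertheless had 1 sign within a comparison, by small amounts. The median log2 difference over the 74 was -0.12 for St6galnac6-/- with 66 below 0, 0.05 for B3galt5D116A with 54 above 0, and -0.20 for B3gnt7-/- with 70 below 0. The last 2 medians each rested on 1 library: without its female the median was -0.11 for B3galt5D116A and -0.01 for B3gnt7-/-. The median over all 11537 genes was 0.00, 0.00 and -0.01. These sizes depended on the scaling between libraries: the 3 medians were -0.03, 0.02 and -0.06 after quantile normalization and -0.04, 0.01 and -0.10 with FPKM rescaled to 1 common sum (TPM). The 3 comparisons share the wild-type libraries. Both St6galnac6-/- libraries were below both wild-type libraries in 43 of 74 members (23.6% of all genes) and above in 1 (24.1%). The 43 were spread over the complexes, with 22 of 36 in complex I, 4 of 8 in complex III, 9 of 13 in complex IV and 8 of 17 in complex V. After quantile normalization the count was 15 (22.8% of all genes), and with TPM 24 (14.5%). For B3gnt7-/- the counts were 31 below (18.6% of all genes) and 1 above (16.0%), with 22 below after quantile normalization (17.4%) and 29 with TPM (8.98%). For B3galt5D116A they were 16 above (26.0%) and 4 below (25.3%), at or under the share of all genes.

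The mean level of each complex showed the same small differences library by library. The complex I mean of log2(FPKM + 1) over its 37 members was 7.35 and 7.36 in the wild-type male and female, 7.26 and 7.12 in St6galnac6-/-, 7.24 and 7.41 in B3galt5D116A and 7.37 and 6.90 in B3gnt7-/-. The corresponding complex III means were 9.06 and 9.05, 9.01 and 8.92, 9.03 and 9.20, and 9.06 and 8.66. Both St6galnac6-/- libraries were thus below both wild-type libraries in these complexes, while B3galt5D116A lay on both sides of them.

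For complex IV the means were 6.56 and 6.59 in wild-type, 6.43 and 6.43 in St6galnac6-/-, 6.46 and 6.62 in B3galt5D116A and 6.49 and 6.33 in B3gnt7-/-. For complex V they were 8.87 and 8.82, 8.80 and 8.70, 8.81 and 8.96, and 8.86 and 8.49 in the same order. The differences from wild-type were -0.16, -0.09, -0.14 and -0.09 for complexes I, III, IV and V in St6galnac6-/- (0.023 and 0.0022 for III and V after quantile normalization, where the sign turned), -0.02, 0.06, -0.03 and 0.04 in B3galt5D116A (-0.00068 for V with TPM), and -0.21, -0.20, -0.16 and -0.17 in B3gnt7-/-. In B3gnt7-/- the spread between the 2 libraries exceeded the difference in complexes I, III and V (SD 0.33, 0.29 and 0.26, n = 2). The complex I values include Ndufs5, whose level is uncertain, as described further on. Over the tested members without it, the complex I difference was -0.11 in St6galnac6-/-, 0.08 in B3galt5D116A and -0.18 in B3gnt7-/-. Over the tested members of complex IV it was -0.19, -0.01 and -0.21 in the same order.

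**Figure D2:**
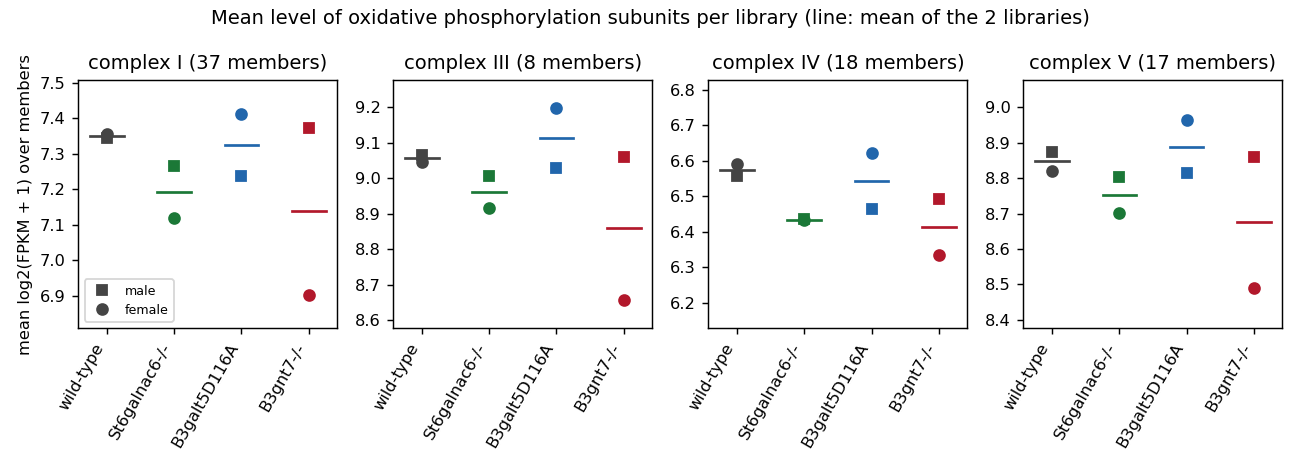
Mean log2(FPKM + 1) over all members of each complex, by genotype, with squares for males, circles for females and lines for the mean of the 2 libraries. Each panel spans 0.7 log2 units. The B3gnt7-/- female is the lowest library in all 4 panels and the B3galt5D116A female the highest.

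The largest differences were seen in single libraries and were not shared by both libraries of a genotype. Whether they go with the library, the animal or the genotype in that sex was not tested, since each genotype has a single library per sex. The B3gnt7-/- female had the lowest value of the 8 libraries in 67 of 74 members (22.9% of all genes). The B3galt5D116A female had the highest in 60 of 74 (20.3% of all genes). After quantile normalization these counts were 41 (18.6%) and 28 (17.2%), and with TPM 54 (7.52%) and 30 (7.63%). Over the 67 members of at least 100 FPKM, the mean level of the B3gnt7-/- female was 76.9% of the wild-type female (-0.38 on the log2 scale), and all 67 were lower. Cox4i1, for example, was at 1488 against 1973 FPKM, Atp5b at 1082 against 1419 FPKM and Uqcrq at 349 against 523 FPKM. The B3gnt7-/- male, of the same genotype, was at 98.2% of the wild-type male. The 2 libraries of B3galt5D116A stood on opposite sides, the male at 95.9% and the female at 111% of wild-type. In St6galnac6-/- both were lower, at 93.4% in the male and 90.6% in the female.

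The B3gnt7-/- female kept the lower level under each of 3 other scalings. Its difference of -0.38 was the same after median centring and became -0.15 after quantile normalization (62 of 67 members lower) and -0.19 with TPM (66 of 67 lower). The 0.16 of the B3galt5D116A female became 0.03 and 0.04. The differences of the St6galnac6-/- male and female, -0.10 and -0.14, became -0.01 and -0.03 after quantile normalization and -0.04 and -0.04 with TPM. These scalings were applied to the library differences after seeing the data.

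Without the B3gnt7-/- female, the B3gnt7-/- difference from wild-type went from -0.21 to 0.02 for complex I, from -0.20 to 0.0047 for complex III, from -0.16 to -0.08 for complex IV and from -0.17 to 0.01 for complex V. Uqcrq and Uqcrfs1, the complex III members with the smallest p-values there, changed sign without it. Without the B3galt5D116A female, Uqcr11 and Uqcr10 did so in the comparison of B3galt5D116A with wild-type.

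Other abundant genes moved with the members in these 2 libraries. In the B3gnt7-/- female against the wild-type female, the median log2 difference was -0.38 for the 74 members and -0.36 for 81 cytosolic ribosomal proteins. It was -0.33 for 11 electron carriers and exchangers (cytochrome c, ATP and phosphate carriers, porins), -0.26 for 17 citric acid cycle and pyruvate dehydrogenase genes and -0.24 for the 4 subunits of complex II (succinate dehydrogenase). In the B3galt5D116A female it was 0.15 for the members, 0.19 for the cytosolic ribosomal proteins and 0.38 for 77 mitochondrial ribosomal proteins. The 17 regulators of mitochondrial biogenesis, among them Nrf1, Gabpa, Esrra and Tfam, had medians of -0.01 in both libraries.

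**Figure D3:**
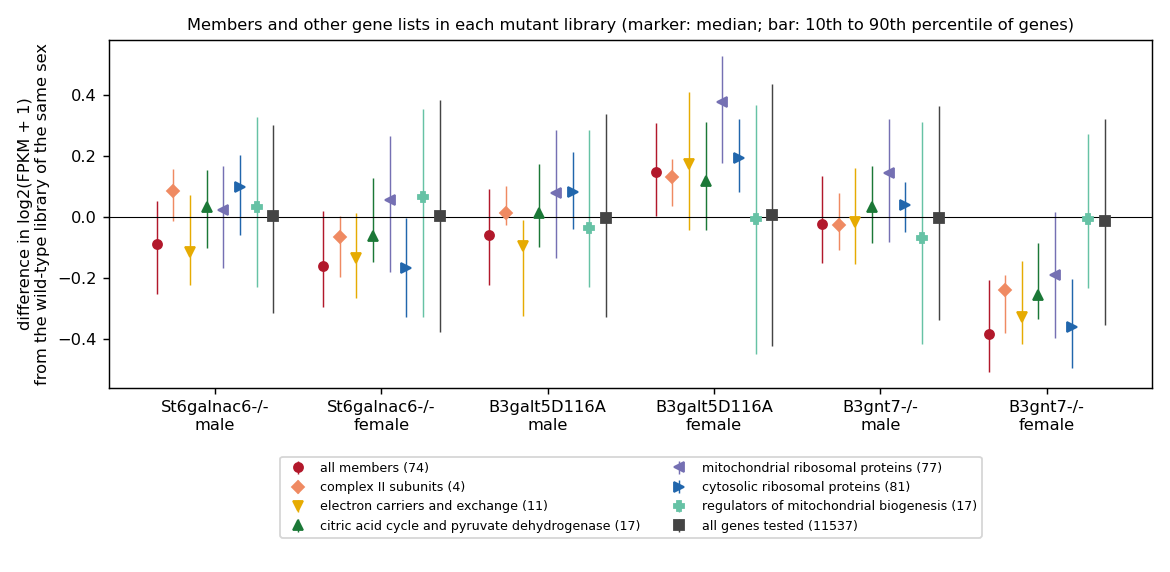
Difference in log2(FPKM + 1) of each mutant library from the wild-type library of its sex, for the members and 7 other sets of genes, with the number tested in parentheses. Markers are medians and bars run from the 10th to the 90th percentile of genes. The members and the ribosomal proteins lie above 0 in the B3galt5D116A female and below 0 in the B3gnt7-/- female, while the medians of all genes lie between -0.01 and 0.01.

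Transcript length and level moved with the same 2 libraries. The members are short, with a median coding length of 398 bases. Genes other than the members were binned by coding length and mean FPKM. Under 600 bases and from 100 FPKM, their median difference was 0.22 in the B3galt5D116A female and -0.30 in the B3gnt7-/- female. Among the 50 genes with at least 2400 coding bases and 100 FPKM it was -0.03 and 0.00. For genes of 1 to under 100 FPKM it was 0.19 and -0.12 under 600 bases and -0.18 and 0.08 from 2400 bases. Markers of other cells also stood out in the B3gnt7-/- female. The 6 fibroblast markers summed to 25.3 FPKM there and to 2.71 to 4.38 FPKM in the other libraries, with Dcn at 18.9 FPKM against at most 3.35. The erythrocyte markers summed to 48.6 FPKM against 8.25 to 23.2. In these bulk samples fewer cells of a type and less RNA per cell cannot be told apart, and the part of length, RNA from other cells or library preparation in the members' levels was not tested.

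Cell type markers differed beside the members. In St6galnac6-/- all 16 markers of absorptive colonocytes were below wild-type in the mean (median log2 difference -0.37), with 5 lower at an unadjusted p under 0.05 (4.98% of all genes) and 0 called by limma. The 11 goblet cell markers had a median of 1.44, with 1 called and 7 higher at an unadjusted p under 0.05 (4.07% of all genes). The 10 markers of proliferating crypt cells had a median of 0.71, with 0 called and 4 higher at that level. In the other mutants the absorptive markers had medians of 0.06 (B3galt5D116A) and -0.07 (B3gnt7-/-). The goblet markers had medians of 0.70 and 0.73, with 6 and 5 of 11 higher at an unadjusted p under 0.05, and the proliferation markers 0.79 and 0.43, with 7 and 0 of 10. The 5 enteroendocrine markers had medians of 0.92, 1.22 and 0.70 in St6galnac6-/-, B3galt5D116A and B3gnt7-/-, with 0, 1 and 0 called. Higher goblet, proliferation and enteroendocrine medians were thus found in all 3 mutants, which share the wild-type libraries. In B3gnt7-/- the enteroendocrine and proliferation medians were 1.59 and 0.85 in the male and -0.20 and 0.06 in the female, each against its own sex. All other library medians of these 3 lists were above 0. The part of these cell types in the values of the members was not tested.

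Once the level of each library was removed, most members varied less between libraries. For the 67 members of at least 100 FPKM, the range over the 8 libraries had a median of 0.53 on the log2 scale. After subtracting each library's mean over the 67 it was 0.20, from 0.08 for Ndufa3 to 0.47 for Cox7a1. The mean subtracted is that of the same members, which can by itself narrow their range. The range was not compared with that of other genes. In this relative measure all 6 mutant libraries lay above both wild-type libraries for 4 members (17.3% of the 954 genes at that level, measured the same way) and below for 5 (5.35%). Out of 67, the 4 were a smaller share than that of the 954 genes, and the 5 were near it. The mean of the members was the reference for all of these genes. The 4 were Ndufs3, Ndufa9, Ndufa4 and Atp5k, and the 5 were Atp5d, Cox5b, Ndufa6, Cox7c and Ndufb5, chosen after their values were seen. Atp5k and Ndufa4 were each 0.19 higher and Atp5d 0.19 lower in the mean of the mutants, and the other 6 differed by less. These are descriptions with no test.

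**Figure D4:**
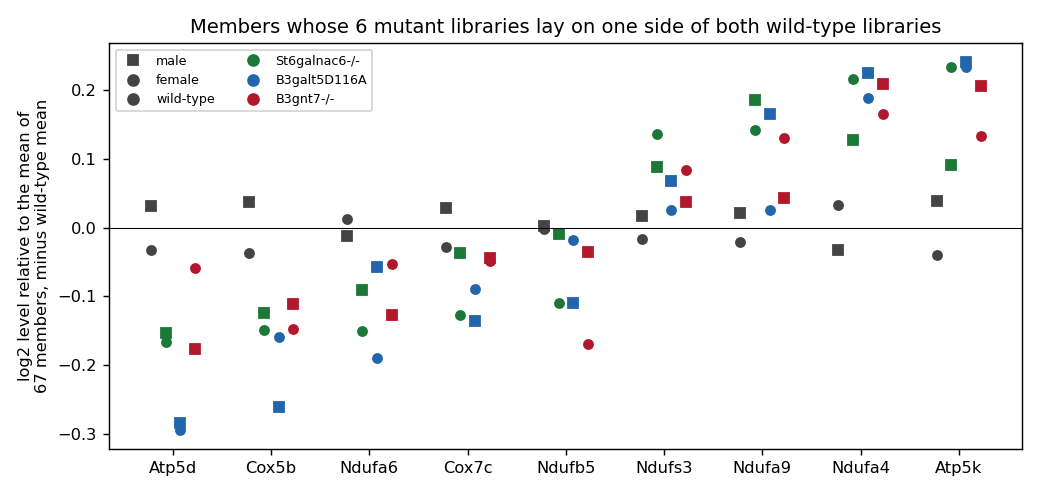
Log2 level of 9 members relative to the mean of the 67 members of at least 100 FPKM in the same library, with the wild-type mean set to 0. Squares are males, circles females and colours genotypes. The 6 mutant libraries lie below both wild-type libraries for the 5 members on the left and above them for the 4 on the right. The 9 were chosen for this pattern.

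The promoters of the members were searched for the letters of 4 factors known to act on respiratory genes. Any part of these factors in the levels described above was not tested. RefSeq promoter windows on GRCm38.p6 (250 bases before to 50 after the start) were matched for 66 members. The core of NRF1 (GCGCATGC), read on both strands, occurred in 9 of 66 (13.6%, against 6.18% of tested genes). The core of GABP (CCGGAAG), also known as NRF2, occurred in 14 (21.2%, against 21.2%). The core of YY1 (AAGATGGC) occurred in 11 (16.7%, against 5.68%), 7 of them in complex I and 4 in complex V. The known recognition letters of the oestrogen-related receptors (AAGGTCA) occurred in 7 (10.6%, against 4.04%). At least 1 of the 4 occurred in 33 of 66 members, and in 32.9% of 9233 tested genes. The shares of all 27025 promoters were 3.05%, 9.93%, 3.19% and 5.38% for the 4 motifs in that order. A match is a description of the letters and not a bound site.

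Windows of 4 members, 1 per complex, are shown because between them they hold all 4 motifs. They are written 5′ to 3′ on the gene's strand, with matches on either strand in capitals. Ndufa9, a complex I subunit near the quinone site, lies on the minus strand at chr6:126849095-126849394 and holds the YY1 core. Uqcr11 of complex III (minus strand, chr10:80406772-80407071) holds the GABP core followed by the NRF1 core. Cox6a1 of complex IV (minus strand, chr5:115348909-115349208) holds 2 overlapping NRF1 matches, since that core is nearly its own reverse complement, followed by the GABP core. Atp5k of complex V (minus strand, chr5:108434350-108434649) holds the same overlapping pair, the GABP core and the letters of the oestrogen-related receptors.
Ndufa9: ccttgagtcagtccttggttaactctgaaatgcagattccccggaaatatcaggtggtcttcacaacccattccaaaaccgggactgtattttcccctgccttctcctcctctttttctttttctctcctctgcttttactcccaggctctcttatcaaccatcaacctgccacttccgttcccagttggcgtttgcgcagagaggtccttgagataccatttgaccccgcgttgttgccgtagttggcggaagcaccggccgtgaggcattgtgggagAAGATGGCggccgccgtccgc
Uqcr11: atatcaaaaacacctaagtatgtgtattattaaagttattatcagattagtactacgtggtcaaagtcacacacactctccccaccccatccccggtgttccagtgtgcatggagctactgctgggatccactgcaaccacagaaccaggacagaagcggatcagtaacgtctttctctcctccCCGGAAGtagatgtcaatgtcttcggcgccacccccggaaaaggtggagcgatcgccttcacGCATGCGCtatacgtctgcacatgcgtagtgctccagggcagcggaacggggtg
Cox6a1: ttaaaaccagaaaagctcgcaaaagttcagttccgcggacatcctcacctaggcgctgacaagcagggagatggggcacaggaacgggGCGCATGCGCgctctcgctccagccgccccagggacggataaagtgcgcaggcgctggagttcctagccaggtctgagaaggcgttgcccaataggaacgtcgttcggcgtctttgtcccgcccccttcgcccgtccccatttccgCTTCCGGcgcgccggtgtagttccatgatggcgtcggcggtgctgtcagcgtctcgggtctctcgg
Atp5k: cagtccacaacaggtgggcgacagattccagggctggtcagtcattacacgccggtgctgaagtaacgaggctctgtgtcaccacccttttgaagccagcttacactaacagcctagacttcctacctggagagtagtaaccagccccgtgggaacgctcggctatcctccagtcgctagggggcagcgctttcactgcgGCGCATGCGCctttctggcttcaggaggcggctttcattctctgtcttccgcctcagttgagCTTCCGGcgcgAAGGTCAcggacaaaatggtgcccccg

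Between the sexes 1 member passed the test. Cox6b2, known as the testis form of the complex IV subunit 6b, was at 2.76, 2.23, 3.29 and 3.10 FPKM in the wild-type, St6galnac6-/-, B3galt5D116A and B3gnt7-/- males. In the females it was at 5.59, 6.23, 8.34 and 8.44 FPKM in the same order. Every female was above every male, and the female value was 2.03 to 2.79 times the male value of its genotype. The mean was 7.15 ± 1.46 FPKM in females and 2.85 ± 0.464 FPKM in males (SD, n = 4 each). The male-minus-female difference was -1.07 on the log2 scale (SE 0.11, adjusted p = 0.0374 in limma).

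Limma called 1 of 74 members between the sexes, against 0.052% of all genes, or 6 genes. The others were Xist on the X chromosome and Eif2s3y, Ddx3y, Kdm5d and Uty on the Y chromosome. At an unadjusted p under 0.05 the count was also 1 member (1.66% of all genes). All 4 females were above all 4 males in 1 member (0.485% of all genes), and all 4 males above all 4 females in 0 (0.485%). The call rested on all 8 libraries: without any 1 of them the adjusted p was 0.121 to 0.487, with a difference of -1.16 to -1.03. It was 0.0594 with a pseudocount of 5, 0.0639 after quantile normalization and 0.284 without the filter on low values. With a filter of 5 FPKM Cox6b2 was not tested, since its mean is just under that. The somatic form Cox6b1 was at 877 to 1348 FPKM, so Cox6b2 held 0.198% to 0.954% of the sum of both.

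Cox6b2 lies at chr7:4751792-4753094 of mm10, on the minus strand, with no overlapping gene and no near-identical copy in the annotation. Its promoter window, chr7:4753045-4753344, is shown because it is the only member called in the fit of all 8 libraries. None of the 4 motifs was in these letters, which says nothing about the factors themselves.
Cox6b2: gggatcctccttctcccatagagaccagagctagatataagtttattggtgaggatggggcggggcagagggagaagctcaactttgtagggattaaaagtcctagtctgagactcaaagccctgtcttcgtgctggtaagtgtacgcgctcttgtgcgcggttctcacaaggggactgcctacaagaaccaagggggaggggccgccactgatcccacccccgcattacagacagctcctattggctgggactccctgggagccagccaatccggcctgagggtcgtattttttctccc

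The other members leaned the opposite way in sex. The male-minus-female difference was positive in 68 of 74 members, with a median of 0.08, against 0.01 over all genes. The median was 0.01 after quantile normalization and with TPM, and -0.01 without the B3gnt7-/- female. Cytosolic ribosomal proteins had a median of 0.16 (79 of 81 positive). The females include the B3gnt7-/- female described above.

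**Figure D5:**
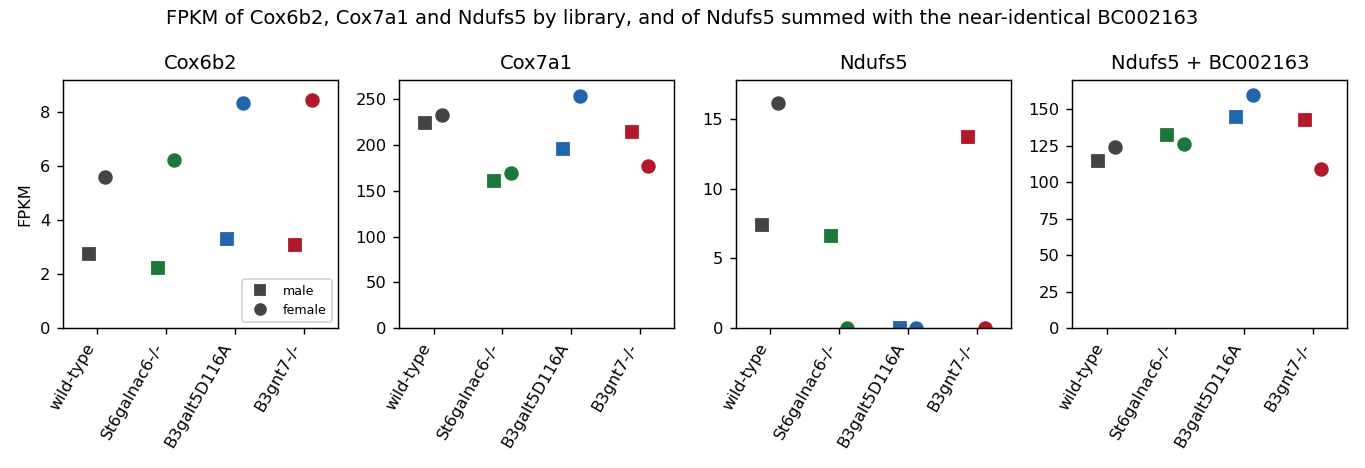
FPKM by genotype of Cox6b2, Cox7a1 and Ndufs5, and of Ndufs5 summed with the near-identical gene BC002163, with squares for males and circles for females. All 4 females lie above all 4 males for Cox6b2, and both St6galnac6-/- libraries lie below the 6 others for Cox7a1. Ndufs5 alone is near 0 in 4 libraries, while the sum stays between 109 and 160 FPKM.

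Ndufs5, an accessory complex I subunit at chr4:123712710-123718202 of mm10, varied more than any other tested member. The wild-type male and female had 7.41 and 16.1 FPKM, the St6galnac6-/- pair 6.60 and 0.00145 FPKM, the B3galt5D116A pair 0.00173 and 0.00226 FPKM and the B3gnt7-/- pair 13.7 and 0.00137 FPKM. The B3galt5D116A difference from wild-type was -3.58 (SE 1.09), with an unadjusted p of 0.0132 and an adjusted p of 0.354 in limma. The annotated gene BC002163 is near-identical to Ndufs5, and was at 107 to 160 FPKM. With both genes summed, the wild-type pair had 115 and 124 FPKM, the St6galnac6-/- pair 132 and 127 FPKM, the B3galt5D116A pair 145 and 160 FPKM and the B3gnt7-/- pair 142 and 109 FPKM, so the sum was not near 0 in any library. Reads of the 2 genes could be split between them in counting, so the level of Ndufs5 alone is uncertain. Without Ndufs5 the complex I difference between B3galt5D116A and wild-type was 0.07 in place of -0.02.

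Near-identical copies were looked for in all members. An annotated transcript at 95% identity or more over at least 80% of the coding length was found for 21 of 80, and 36 overlapped another annotated gene. Of the copies with a value besides BC002163, none exceeded 7.47 FPKM. The kit marks strand, but the strand setting of the counting is not given in the sources used here, so reads of overlapping genes may be mixed.

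The rest of the pathway was described by lists. Of 47 tested assembly factors for the 4 complexes, the complex II subunits, the carriers, ubiquinone synthesis, the citric acid cycle genes, the regulators and both sets of ribosomal proteins, limma called none against wild-type in any of the 3 mutants. Unadjusted counts were a few genes per list, in some lists above the share of all genes given below. For B3galt5D116A, 3 of 13 ubiquinone synthesis genes were higher and 1 lower at an unadjusted p under 0.05 in limma. Of 17 regulators 3 were higher and 1 lower, and of 13 complex I assembly factors 2 were higher and 0 lower. Of 81 cytosolic ribosomal proteins 2 were higher, and of 11 carriers 0, with 0 lower in both lists. For B3galt5D116A, 9 of 77 mitochondrial ribosomal proteins were higher at an unadjusted p under 0.05 and 0 lower, with 72 of 77 above 0 and a median of 0.23 (5.84% of all genes were higher and 5.9% lower at that level). The median was 0.38 in the female and 0.08 in the male. Ssbp1, which coats single-stranded mitochondrial DNA, had 18.1 and 17.8 FPKM in wild-type and 21.8 to 25.3 FPKM in the 6 mutant libraries (adjusted p = 0.511, 0.382 and 0.542 in limma). Slc25a3, the phosphate carrier that feeds the ATP synthase, had 776 and 736 FPKM in wild-type and 585 to 639 FPKM in the mutants (adjusted p = 0.585, 0.470 and 0.726). Cytochrome c1 (Cyc1), a complex III subunit outside the symbols used, ranged from 280 FPKM in the B3gnt7-/- female to 420 FPKM in the wild-type female. The 13 symbols searched for subunits encoded in mitochondrial DNA matched 0 of the genes listed, so these subunits could not be analysed here.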

How the data were processed

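Per the submitters' processing notes, Cuffdiff 2.2.1 was used with SAMtools 0.1.18, TopHat2 2.1.1 and Bowtie2 2.2.8 on the build mm10. The authors deposited 1 table of FPKM values per library, per the file headers, and their scaling between libraries and the counting's strand setting are not given in the sources used here. The files hold no counts. Values of few fragments give a relative depth of 1 to 1.46 times the wild-type male.

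FPKM were taken as log2(FPKM + 1). All 11537 genes whose mean reached 1 FPKM were fitted with limma 3.58.1 (R 4.3.3, eBayes with trend), with genotype and sex as terms in 1 fit of all 8 libraries (3 residual and 4.02 prior degrees of freedom). Tests were two-sided with Benjamini-Hochberg adjustment over all genes and a threshold of 0.05. The spread is assumed alike in all genotypes. The fit was also run on simulated data with noise independent between genes and added shifts larger than most differences of the members. Such data hold no library-wide shifts like those described above, so the run does not speak to them. Means per complex and lists carry no test. The level of 1 member is not reported here on its own and is not drawn. Named members are, per comparison, the 2 of each complex with the smallest p and the same sign in both sexes, besides core subunits, isoforms and the highest and lowest members. Genes were placed by GENCODE M21, copies found with BLAST 2.17.0 and promoters taken from RefSeq. Alternatives were pseudocounts of 0.1 and 5, no filter, a filter of 5 FPKM, 3 scalings, other terms and each library left out. The members and lists were chosen with earlier results of these data known.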

Additional observations from a re-analysis of the deposited data

Results flagged for a closer look

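In 5 cases the male and female libraries of a mutant stood on opposite sides of wild-type, which was not tested, since each genotype has 1 library per sex. For B3galt5D116A the difference from wild-type in the mean log2 level of a complex was higher in the female than in the male by 0.17 for complex I, 0.19 for complex III, 0.12 for complex IV and 0.20 for complex V. For B3gnt7-/- the female difference for complex I was lower than the male by an amount coded as -0.48 (female minus male). The male was above wild-type there by 0.03, with 21 of 36 tested members lower, and by 0.00064 over the tested members without Ndufs5. Over the latter the female difference was -0.36. Complexes III, IV and V of B3gnt7-/- had both sexes below wild-type. The FPKM sum was also highest in the B3galt5D116A female and lowest in the B3gnt7-/- female, and its part in these differences was not tested.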

How the results depend on the processing

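No genotype comparison called a member under the alternatives, except Ndufs5 between B3galt5D116A and wild-type in a fit of only these genotypes (1 member, adjusted p = 0.0158 in limma). The count of 1 for sex (Cox6b2) became 0 with a pseudocount of 5, without a filter, with a filter of 5 FPKM, after quantile normalization and without any 1 library (0 to 0). Leaving out the B3galt5D116A female gave Uqcr11 -0.073 and Uqcr10 -0.0022 against wild-type (0.48 and 0.30 without the male), and leaving out the B3gnt7-/- female gave Uqcrq 0.015 and Uqcrfs1 0.0090 (-0.70 and -0.41 without the male), each with the sign turned and none called.

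Of 159 alternative values of the complex means, 133 moved by less than the spread between libraries (pooled SD of both groups). That count does not show stability, since the spread was often larger than the difference itself. In B3gnt7-/- it was 0.235, 0.202 and 0.187 for I, III and V, against differences of -0.211, -0.197 and -0.172. In B3galt5D116A it was larger for every complex. A value near 0 or of the other sign could thus count as unmoved. For St6galnac6-/-, quantile normalization gave -0.069, 0.023, -0.075 and 0.0022 for complexes I, III, IV and V, rescaling to TPM -0.014, -0.082 and -0.015 for III, IV and V, the median over members -0.078 for I and -0.11 for IV, and members of at least 1 FPKM -0.19 for IV. Males alone gave -0.080 for I and -0.12 for IV, females -0.24 and -0.16 (-0.13 for I over tested members without Ndufs5). For B3galt5D116A, the median gave 0.11 for I and 0.055 for IV, males alone -0.035 for III and -0.059 for V, females 0.15 and 0.14, and leaving out Ndufs5 (chosen after seeing the data) 0.074 for I. For B3gnt7-/-, males alone gave 0.029 for I and -0.063 for IV, and quantile normalization -0.069 for IV. Females alone gave -0.45 and -0.26 (-0.36 for I over tested members without Ndufs5). With TPM the median of all genes was -0.11 between B3galt5D116A and St6galnac6-/- (0.0031 in FPKM) and 0.12 between B3gnt7-/- and B3galt5D116A (-0.02 in FPKM). The cause of these shifts was not tested. With 2 libraries a genotype and no counts, small differences could not be resolved. No paired analysis was possible because the labels give no replicate numbers, but the sex term of the model already sets males beside males and females beside females, and without it limma again called 0 members in each mutant against wild-type.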
